A study of Sus scrofa with 27 samples.

Results

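The genes described here are the motile cilia genes of airway epithelium, followed in pig lungs kept on ex vivo lung perfusion (EVLP). Their names were given as a list of 42, and a gene was kept when its name stood in the name column of the deposited count table and when at least 1 library held 10 or more counts for it. This left 34 of the 42 names among 31908 genes. The names CFAP54, HYDIN, DNAH3, SPAG17, PIFO, CFAP53, TEKT4 and DNAH12 were not found in that column and are not analysed here. All 34 genes passed the filter on low counts in every comparison. The values come from 27 RNA-seq libraries of lung biopsies taken at 0h, 6h and 12h of EVLP from the lungs of 9 Large White pigs, all obtained from donors without heartbeat, kept cold before EVLP and perfused with Steen solution that held methylprednisolone, cefuroxime and heparin. In the Gold Standard (GS) group, 5 pigs (9, 17, 44, 55 and 77), a part of the perfusate was exchanged at regular intervals. In the Pediatric Dialysis (PD) group, 4 pigs (2, 3, 4 and 5), a hemodialyzer with a pediatric membrane worked on the circuit instead. The 0h biopsy was taken before EVLP began in either group, and values listed for a group below follow the pigs in the order given here.

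Total counts per library ran from 26335584 to 67522703 in the GS group (median 53623755) and from 14650700 to 21820935 in the PD group (median 19344265). No PD library reached the depth of any GS library, so the group and the depth cannot be told apart in any comparison of PD with GS. The PD lungs had also served in an earlier study and the GS lungs had not, so a difference in handling cannot be told apart from the group either. The RNA was extracted in either of 2 ways, and which biopsy went through which kit is not given in the sources used here. The PD library of pig 2 at 12h had the lowest depth, the fewest genes with counts (18979) and the smallest normalization factor (0.633). Its share of counts from mitochondrial genes was also the lowest, 1.65%, against 11.1% and 11.6% in this pig at 0h and 6h. The PD library of pig 4 at 0h had low summed markers of alveolar type 1 cells, endothelium and smooth muscle. Counts of called members that change without these 2 libraries are given both ways. Surfactant and other alveolar type 2 markers, which define the labelled tissue, summed to at least 5525 CPM in every library. CPM is the read count of a gene relative to the scaled size of its library, which puts libraries of different depth on 1 scale. Comparisons of PD with GS depend on the scaling chosen, as given below for 0h.

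Motile cilia are the beating hairs of multiciliated cells, which line the conducting airways and move mucus towards the throat. Each holds a ring of microtubule doublets around a central pair, with outer and inner dynein arms as motors, radial spokes and nexin links that set the beat, and filaments inside the doublets that hold them together. The program that builds them is switched on by multicilin (MCIDAS) and carried by the transcription factors FOXJ1 and the RFX family. Because a biopsy of lung tissue was sequenced as a whole, fewer multiciliated cells and less of these transcripts per cell cannot be told apart in any value below.

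Levels per kilobase of exon spanned more than an order of magnitude among the 34 genes. TPPP3, a tubulin-binding protein abundant in ciliated cells, had the highest median over the 27 libraries, 40.1 CPM per kilobase, ahead of the doublet protein CFAP45 (17.1), the dynein assembly factor ZMYND10 (13.5) and the spoke protein RSPH1 (10.9). MCIDAS had the lowest, 0.265 CPM per kilobase, with raw counts of 5 to 103 per library. Next from the bottom were the heavy chain gene DNAH7 (0.347), the central pair gene SPAG16 (0.594) and the heavy chain gene DNAH5 (1.01 CPM per kilobase). The order pools both groups and differs between them, with RSPH1 at 22.9 and CFAP45 at 21.1 CPM per kilobase in GS at 0h, and RSPH1 at 7.002 and CFAP45 at 11.9 in PD at 0h (medians). Most neighbours in this order have overlapping ranges over the libraries, as the plot of levels per length shows. Exon lengths were those of RefSeq annotation, which need not be the models the counts were made on. All mRNA exons of a gene were joined, so a gene with many transcript forms gets a longer length and a lower value.

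**Figure D1:**
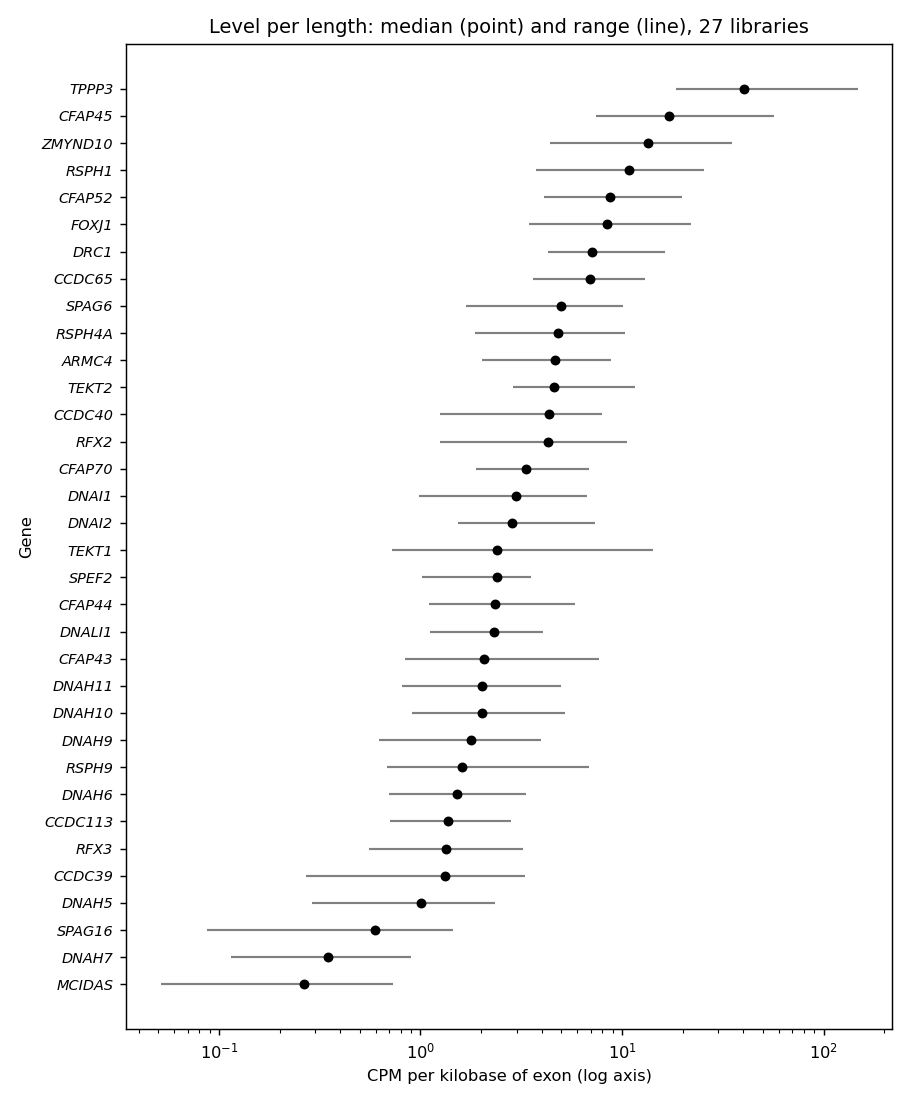
Level per length of the 34 motile cilia genes. The horizontal log axis gives CPM per kilobase of exon, points are medians over the 27 libraries and lines run from the lowest to the highest library; TPPP3 lies at 40.1 and MCIDAS at 0.265.

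In the GS group most motile cilia genes had lower estimates at 12h of EVLP than at 0h. MCIDAS, the outer arm chains DNAI1 and DNAH5 and the doublet filament gene TEKT1 fell at least 2-fold, and no member rose. A gene was called at an edgeR quasi-likelihood p, adjusted over all genes tested by the Benjamini-Hochberg method, under 0.05 with a fold change of at least 2. The 4 called genes of 34 stand beside 8.66% of all genes called lower in this comparison (15.7% in either direction). The count was 2 without pig 77, with DESeq2's size factors, with no replicate block, with the 2 times alone or with all 27 libraries in one fit, and 8 with total count scaling. With the adjusted p alone 16 of the 34 were lower and 0 higher, where 20.8% of all genes were lower. This count was 5 without pig 55, 7 without pig 77, 5 with no replicate block, 2 with all 27 libraries in one fit and 28 with total count scaling. The estimate was below 0 for 33 of the 34 genes, against 54.3% of all genes, with a median log2 fold change of −0.59 against −0.08. In every one of the 5 pigs 21 members were lower at 12h (19.6% of all genes), and for 9 members all 12h libraries lay below all 0h libraries (5.87% of all genes).

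Averaged over the members, the level in the GS group was 4.07 ± 0.10 log2 CPM at 0h, 3.90 ± 0.46 at 6h and 3.51 ± 0.15 at 12h (mean ± SD, n = 5). The change of this average from 0h to 12h within a pig was −0.45, −0.32, −0.48, −0.62 and −0.89. It was negative in 5 of 5 pigs, with a mean of −0.55 ± 0.22. At 6h the pigs went different ways. The change from 0h was 0.30, 0.36, −0.88, −0.16 and −0.46, with a mean of −0.17 ± 0.52. Pigs 9 and 17 were higher at 6h than at 0h, and pigs 44, 55 and 77 were lower. Pig 44 was lowest at 6h, where its library held the lowest value of all 27 for 12 of the 34 genes. The same split of the GS pigs is seen in depth. Total counts per library ran from 26335584 to 41802541 in pigs 9 and 17. In pigs 44, 55 and 77 they ran from 51708598 to 67522703. Pig and depth therefore cannot be told apart in the split at 6h, and the part of depth in it was not tested.

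**Figure D2:**
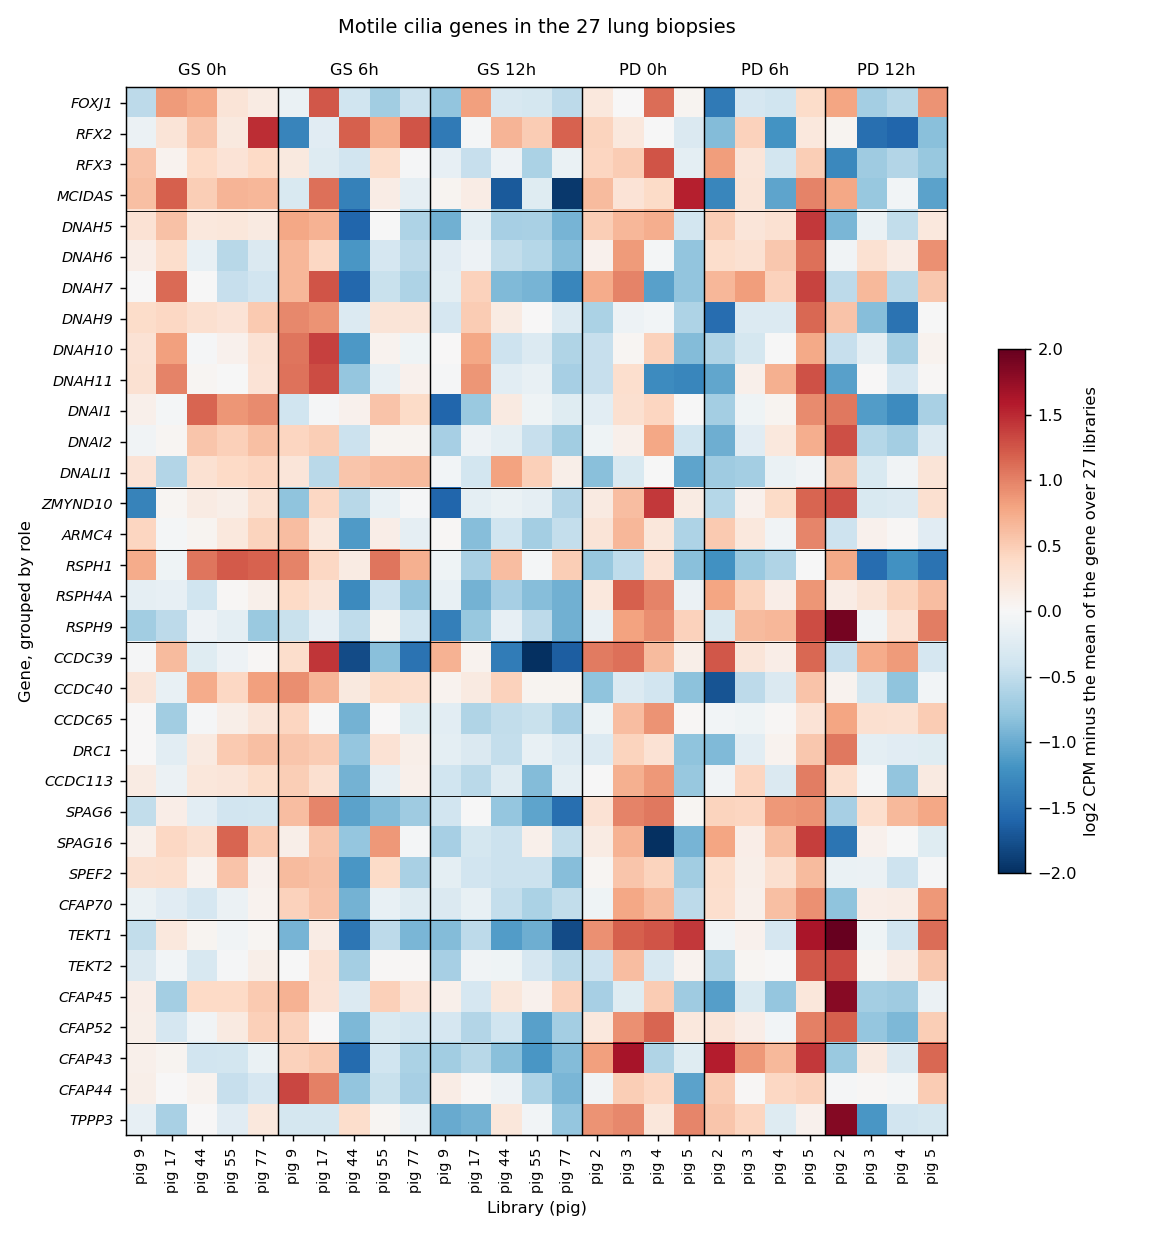
Levels of the 34 motile cilia genes in the 27 libraries. Colour gives log2 CPM minus the mean of the gene over all libraries, columns are libraries in group, time and pig order, and horizontal lines separate the roles; the GS 12h columns are mostly blue, and the PD 12h column of pig 2 and the PD 6h column of pig 5 each hold the highest value for 8 genes.

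For 6h against 0h in the GS group 0 members were called by edgeR, where 11.1% of all genes were. DESeq2 called 0 as well, and 4 members had an unadjusted p under 0.05, all lower. The adjusted p alone was passed in edgeR by 1 member, TEKT1 at −0.70 (adjusted p = 0.0422), where 14.9% of all genes were lower. This count was 3 with DESeq2 and 4 with total count scaling. It was 0 with no replicate block, DESeq2's size factors, no low count filter, the 2 times alone or all 27 libraries in one fit. Leaving out pig 9, 44 or 77 gave 0 as well. The median log2 fold change of the members was −0.13 and 24 estimates were below 0 (53.8% of all genes). From 6h to 12h in the GS group all 34 estimates were below 0 (50.7% of all genes) with a median of −0.43, but 0 were called by edgeR or by DESeq2, in a comparison where 0 genes (0%) were called at all. Pig 44 went the other way, with a mean change of 0.40 and 3 of 34 members lower. The median was −0.64 without this pig. In this comparison 10 of the 34 had an unadjusted p under 0.05. The share of all genes under that threshold is not given here for any comparison, so no result about the members is read from such counts. Leaving out 1 pig at a time, the median for 6h against 0h ran from −0.28 (without pig 17) to 0.04 (without pig 44), so its sign rests on pig 44. With total count scaling it was −0.29, with 32 estimates below 0.

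In the PD group no member was called at any time by edgeR. For 12h against 0h 5.98% of all genes were called, and the median log2 fold change of the members was −0.24, with 23 of 34 estimates below 0 (52.1% of all genes). With total count scaling it was −0.52 with 29 below 0. RFX3 had the only unadjusted p under 0.05, and it was the single member that DESeq2 called. For 6h against 0h, where 0.142% of all genes were called, the median was 0.05 and 0 members had an unadjusted p under 0.05. This median was −0.36, with 28 of 34 estimates below 0, without pig 5, 0.24 without pig 4 and 0.17 without the libraries of pig 4 at 0h and pig 2 at 12h. From 6h to 12h, with 0 genes (0%) called, the median was −0.23 and 2 members had an unadjusted p under 0.05, and the median was −0.53 without pig 2, −0.51 without these 2 libraries, −0.48 with total count scaling and −0.09 without pig 5. DESeq2 called 0 members in both of these.

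The member average in the PD group was 4.07 ± 0.35 log2 CPM at 0h, 4.10 ± 0.44 at 6h and 3.87 ± 0.32 at 12h (n = 4). Its change from 0h to 12h was 0.27, −0.79, −0.67 and 0.41. Pigs 3 and 4 were lower and pigs 2 and 5 higher, with a mean of −0.20 ± 0.62, so the mean was smaller than the spread between pigs. At 6h the change was −0.24, −0.44, −0.29 and 1.12, and the library of pig 5 lay above the own median of the gene for 32 of the 34 genes. Without pig 2 the count called lower at 12h against 0h was 4 (RFX3, RFX2, TPPP3 and DNAI1). Without the libraries of pig 4 at 0h and pig 2 at 12h it was 2 (TPPP3 and DNAI1). The 5.98% of all genes called belongs to the fit with all pigs, and no share is given for these refits. The median of the members at 12h against 0h was −0.13 without these 2 libraries, and it ran from −0.40 without pig 5 to 0.06 without pig 4, so its sign rests on pig 4.

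**Figure D3:**
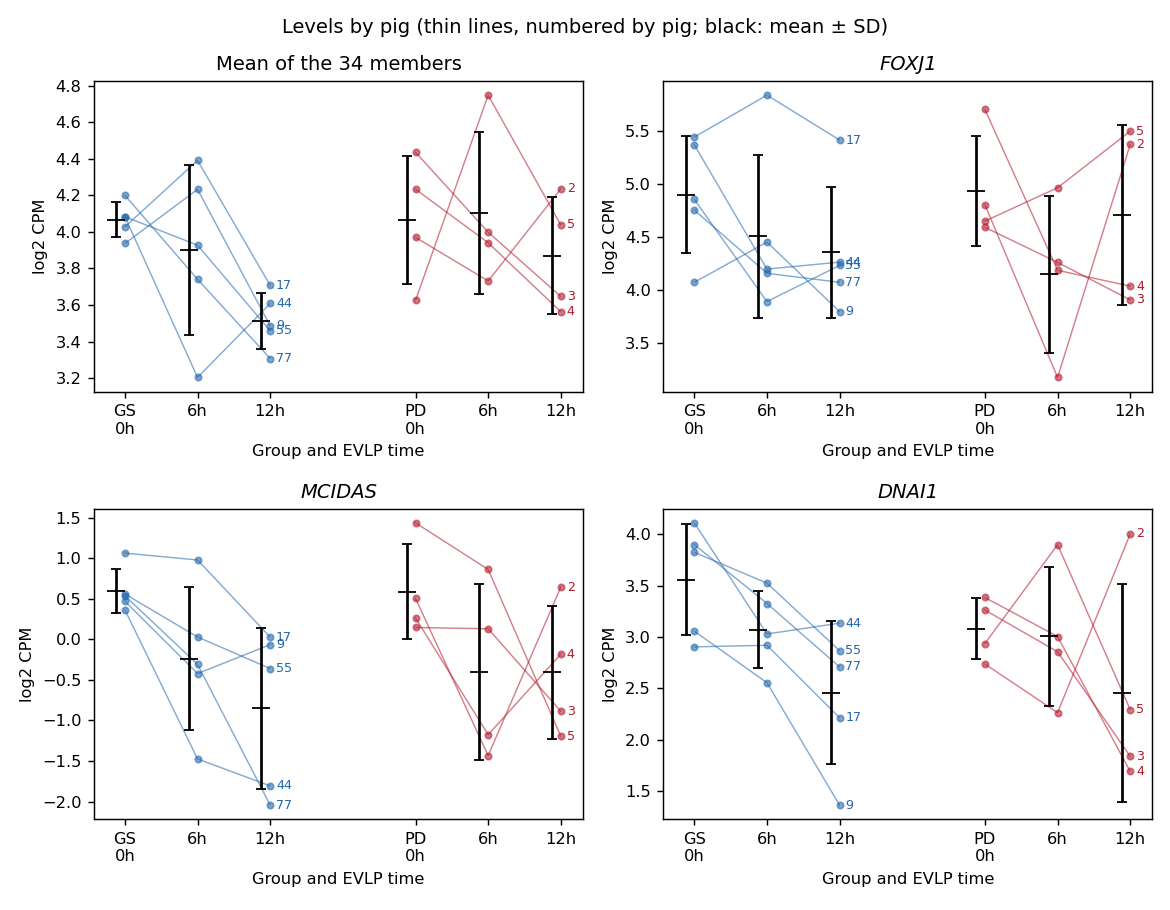
Member average, FOXJ1, MCIDAS and DNAI1 by pig. Vertical axes give log2 CPM, horizontal axes the group and EVLP time; thin lines join the biopsies of a numbered pig and black bars are mean ± SD (GS n = 5, PD n = 4). All 5 GS lines of the member average end below their 0h point, and 2 of the 4 PD lines do.

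The 4 regulators were all estimated lower at 12h in either group. FOXJ1 (ENSSSCG00000017187, chr12:5307383-5311990, plus strand), the forkhead factor that drives motile ciliogenesis, was at 16.8, 43.4, 41.2, 28.8 and 26.9 CPM at 0h in the GS group and at 13.8, 42.5, 19.1, 18.7 and 16.8 CPM at 12h. Every pig was lower at 12h, but pig 17 at 12h was above the 0h values of every other pig, so the times overlap. The log2 fold change was −0.62 (SE 0.21, adjusted p = 0.0371), past the adjusted p and under 2-fold. The PD values of FOXJ1 were 27.9, 24.0, 51.9 and 25.02 CPM at 0h and 41.3, 14.9, 16.3 and 45.1 CPM at 12h, with pigs 2 and 5 higher and pigs 3 and 4 lower, and a log2 fold change of −0.20 (SE 0.51, adjusted p = 0.846).

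MCIDAS (ENSSSCG00000036183, chr16:34377960-34384453, minus strand), the coiled-coil protein multicilin that starts the multiciliated program, was at 1.33, 2.04, 1.23, 1.42 and 1.40 CPM at 0h, 0.692, 1.92, 0.306, 0.967 and 0.754 CPM at 6h and 0.902, 0.966, 0.232, 0.725 and 0.188 CPM at 12h in the GS group. No 12h value reached the lowest 0h value, and pigs 44 and 77 were lowest. The log2 fold change at 12h was −1.56 (SE 0.37, adjusted p = 0.00566), the largest fall of the 34 genes in GS. Without the pig as a block the same change had an adjusted p of 0.0821 in edgeR. For MCIDAS the PD values were 1.37, 1.05, 1.15 and 2.66 CPM at 0h and 1.51, 0.487, 0.827 and 0.382 CPM at 12h, which overlap, with a log2 fold change of −0.85 (SE 0.67, adjusted p = 0.472). These are low counts: 3 counts are worth up to 0.104 CPM in a GS library and up to 0.324 CPM in a PD library.

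RFX3 (ENSSSCG00000005225, chr1:218340446-218647389, plus strand) is a factor that binds the X-box of ciliary genes. It was at 35.3, 25.04, 31.4, 28.6 and 31.3 CPM at 0h and 21.2, 17.3, 22.2, 15.3 and 21.7 CPM at 12h in the GS group, with no overlap between the times and a log2 fold change of −0.66 (SE 0.16, adjusted p = 0.00542). In the PD group it was at 32.2, 33.6, 56.6 and 20.8 CPM at 0h and 9.71, 14.5, 15.8 and 14.1 CPM at 12h. All 4 PD values at 12h lay below all 4 at 0h, which no other member showed in PD (9.39% of all genes did), and the log2 fold change was −1.38 (SE 0.42, adjusted p = 0.0741 in edgeR). Its relative RFX2 (ENSSSCG00000035403, chr2:72950056-73051181, plus strand) was at 14.4, 18.7, 23.0, 17.9 and 43.96 CPM at 0h and 5.88, 15.2, 25.2, 22.3 and 35.8 CPM at 12h in the GS group, where pig 77 was high and pig 9 low at both times. The RFX2 log2 fold change was −0.36 (SE 0.23, adjusted p = 0.233) in GS and −1.03 (SE 0.47, adjusted p = 0.206) in PD, the latter lower in 4 of 4 pigs.

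RFX proteins bind a palindromic site, the X-box, so the start regions of the members were searched for it, and 3 of the matching ones are shown because RFX2 and RFX3 are among the regulators measured here. Windows of 300 bases, 250 before and 50 after the RefSeq gene start, were read from the Sscrofa11.1 assembly for all 34 members. These starts need not be those of the counted genes. The windows of TEKT1 and DNAH5 lie well inside the counted gene, and those of RSPH4A, CFAP43 and CCDC39 lie away from it. In such cases the start of the counted gene was not searched. The X-box letters, GTNNCC and GGNNAC with 2 free bases between them, on either strand, occurred in 4 of 34 windows (11.8%), and in 1.7% of the 19551 protein-coding gene windows of the genome. A stricter form contained in it, GTTNCC and GGNAAC with the same gap, occurred in CFAP45 alone among the members (2.94% against 0.378%). The forkhead letters TGTTTAC, on either strand, occurred in ARMC4 and CFAP43 (5.88% against 2.65%). A match is a description of letters and not a measured site. The windows shown are RSPH1 (chr13:205827049-205827348, minus strand), CCDC113 (chr6:20052419-20052718, plus strand) and CFAP45 (chr4:90593614-90593913, plus strand). They are read 5′ to 3′ on the strand of the gene with the X-box letters in capitals, which begin 13, 4 and 28 bases before the RefSeq gene start. By the coordinates of the counted genes, the matches of RSPH1 and CCDC113 lie inside the gene.
RSPH1: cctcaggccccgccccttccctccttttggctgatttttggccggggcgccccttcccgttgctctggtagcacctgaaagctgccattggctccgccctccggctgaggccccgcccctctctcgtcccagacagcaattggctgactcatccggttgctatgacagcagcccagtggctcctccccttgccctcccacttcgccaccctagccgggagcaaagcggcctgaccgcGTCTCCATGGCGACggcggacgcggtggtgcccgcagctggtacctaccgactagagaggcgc
CCDC113: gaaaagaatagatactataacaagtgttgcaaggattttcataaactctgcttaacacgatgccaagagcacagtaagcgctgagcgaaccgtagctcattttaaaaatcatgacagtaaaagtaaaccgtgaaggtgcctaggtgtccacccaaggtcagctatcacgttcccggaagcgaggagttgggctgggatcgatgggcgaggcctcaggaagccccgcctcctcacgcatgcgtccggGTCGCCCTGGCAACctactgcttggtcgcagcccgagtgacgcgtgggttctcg
CFAP45: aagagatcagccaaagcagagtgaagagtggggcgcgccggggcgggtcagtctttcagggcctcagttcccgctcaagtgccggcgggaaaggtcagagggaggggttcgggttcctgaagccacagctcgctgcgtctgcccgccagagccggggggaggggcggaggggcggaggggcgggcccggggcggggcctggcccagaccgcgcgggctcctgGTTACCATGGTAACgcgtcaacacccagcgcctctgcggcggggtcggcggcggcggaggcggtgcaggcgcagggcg

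CFAP45 (ENSSSCG00000006394, chr4:90593858-90627809, plus strand), a protein inside the doublet, was at 32.2, 18.5, 38.8, 38.7 and 42.6 CPM at 0h and 31.5, 23.2, 34.5, 31.3 and 40.6 CPM at 12h in the GS group, overlapping, with a log2 fold change of −0.10 (SE 0.20, adjusted p = 0.709). CCDC113 was at 7.13, 5.86, 7.47, 7.55 and 8.22 CPM at 0h and 4.78, 4.33, 5.33, 3.45 and 5.50 CPM at 12h, without overlap, with a log2 fold change of −0.68 (SE 0.24, adjusted p = 0.0385).

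Among the 9 dynein arm genes, 3 chains of the outer arm had the largest falls in the GS group. DNAI1 (ENSSSCG00000039342, chr10:32275175-32355399, minus strand), an intermediate chain of the outer arm, was at 8.26, 7.43, 17.2, 14.1 and 14.9 CPM at 0h and 2.52, 4.58, 8.72, 7.23 and 6.48 CPM at 12h. It was lower in 5 of 5 pigs, most of all in pig 9, although pig 44 at 12h still exceeded the 0h values of pigs 9 and 17. The log2 fold change was −1.13 (SE 0.19, adjusted p = 0.000836), and without pig 9 it was −0.96, short of 2-fold. PD lungs held DNAI1 at 6.61, 9.53, 10.4 and 7.60 CPM at 0h and 16.0, 3.52, 3.17 and 4.84 CPM at 12h, where pigs 3, 4 and 5 were below and pig 2 above every 0h value, with a log2 fold change of −0.53 (SE 0.60, adjusted p = 0.639).

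DNAH5 (ENSSSCG00000032827, chr16:3114279-3430251, minus strand), an outer arm heavy chain, was at 18.2, 22.5, 17.3, 17.4 and 16.9 CPM at 0h and 7.65, 13.0, 9.37, 9.47 and 7.83 CPM at 12h in the GS group, with no overlap. Its log2 fold change was −1.01 (SE 0.29, adjusted p = 0.0148), just at the 2-fold line. It fell short of 2-fold with DESeq2, with DESeq2's size factors, without the low count filter, with the 2 times alone and with all 27 libraries in one fit (−0.95, −0.95, −0.99, −0.96 and −0.97). Leaving out pig 9 or pig 77 brought it to −0.91 and −0.96, and without pig 55 the adjusted p was 0.0506 in edgeR. At 6h its values were 25.5, 24.2, 4.92, 14.9 and 9.66 CPM, the widest spread of the 3 times. DNAH5 in PD was at 21.1, 23.8, 24.7 and 11.5 CPM at 0h and 7.88, 13.6, 10.6 and 17.2 CPM at 12h, with 3 of 4 pigs lower and a log2 fold change of −0.81 (SE 0.42, adjusted p = 0.262).

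DNAI2, the partner intermediate chain of DNAI1, was at 10.2, 11.1, 15.7, 14.9 and 16.3 CPM at 0h and 6.70, 9.93, 9.39, 7.76 and 6.62 CPM at 12h in the GS group, again without overlap, and had a log2 fold change of −0.80 (adjusted p = 0.0124). DNAH7, an inner arm heavy chain, also passed the adjusted p at −0.70 (adjusted p = 0.0452). The other outer arm heavy chain genes were DNAH9 (ENSSSCG00000018015, chr12:56045140-56358236, plus strand) and DNAH11. DNAH9 was at 47.9, 49.3, 46.4, 44.8 and 53.2 CPM at 0h and 29.4, 52.9, 41.7, 37.2 and 30.5 CPM at 12h, where pig 17 lay above its own 0h value, for a log2 fold change of −0.39 (SE 0.20, adjusted p = 0.142). DNAH11 and the inner arm heavy chains DNAH6 and DNAH10 were between −0.44 and −0.38 and were not past the adjusted p, though each was lower in 5 of 5 pigs.

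DNALI1 (ENSSSCG00000039034, chr6:93612929-93622081, plus strand), a light chain of the inner arms, stood at the other end. It was at 9.12, 5.00, 9.27, 9.90 and 10.2 CPM at 0h and 7.27, 5.82, 13.1, 10.5 and 8.20 CPM at 12h in the GS group, with a log2 fold change of 0.01 (SE 0.16, adjusted p = 0.969), the highest of the 34 genes. The PD lungs had DNALI1 at 4.21, 6.11, 7.46 and 3.61 CPM at 0h and 11.3, 6.12, 7.17 and 9.05 CPM at 12h, higher in 3 of 4 pigs, and its log2 fold change of 0.66 (SE 0.41, adjusted p = 0.349) was again the highest.

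The genes for building and docking the arms were ARMC4 and ZMYND10. ARMC4 (ENSSSCG00000011069, chr10:39276511-39462872, minus strand), part of the docking complex of the outer arm, was at 38.0, 27.4, 29.2, 32.5 and 38.3 CPM at 0h and 28.5, 15.5, 21.2, 17.5 and 20.1 CPM at 12h in the GS group, lower in each pig, with a log2 fold change of −0.73 (SE 0.22, adjusted p = 0.0177). The value of pig 9 at 12h lay above the lowest 0h value. ZMYND10, a factor for dynein assembly in the cytoplasm, had −0.43 (adjusted p = 0.0818) in GS, and in PD the log2 fold changes were −0.32 and −0.30, neither past the adjusted p.

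Of the 3 radial spoke head genes only RSPH1 was past the adjusted p at 12h in the GS group. RSPH1 (ENSSSCG00000040224, chr13:205806686-205827204, minus strand) was at 23.3, 13.1, 29.4, 32.6 and 31.5 CPM at 0h and 13.0, 8.88, 21.4, 13.5 and 19.5 CPM at 12h, lower in 5 of 5 pigs with overlap between pigs, and its log2 fold change was −0.78 (SE 0.22, adjusted p = 0.0136). RSPH4A (ENSSSCG00000023834, chr1:44963879-44985205, minus strand) was at 20.5, 20.8, 17.6, 23.6 and 25.03 CPM at 0h and 21.1, 12.1, 14.7, 12.9 and 11.9 CPM at 12h. Pig 9 did not go down, and the log2 fold change was −0.63 (SE 0.24, adjusted p = 0.0527). RSPH9 (ENSSSCG00000001691, chr7:38625787-38641410, plus strand) was at 2.31, 2.60, 3.51, 3.28 and 2.24 CPM at 0h and 1.42, 2.21, 3.37, 2.61 and 1.91 CPM at 12h, overlapping, with −0.33 (SE 0.20, adjusted p = 0.219).

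In the nexin link and ruler group DRC1 and CCDC113 passed the adjusted p in the GS group. DRC1 (ENSSSCG00000008568, chr3:112581770-112621601, minus strand), a subunit of the nexin link, was at 22.7, 19.6, 25.6, 32.3 and 34.2 CPM at 0h and 19.8, 18.5, 16.1, 20.4 and 18.6 CPM at 12h, lower in each pig, with a log2 fold change of −0.56 (SE 0.21, adjusted p = 0.0456). In PD the DRC1 values at 12h were 46.8, 19.8, 19.3 and 19.1 CPM, where pig 2 stood far above the other 3. CCDC39, which with CCDC40 forms the ruler that spaces the arms and spokes, was at 11.3, 17.8, 9.65, 10.6 and 11.6 CPM at 0h and 18.6, 12.1, 4.32, 2.55 and 3.62 CPM at 12h in GS. Pig 9 was higher and the other 4 were lower, and the log2 fold change of −1.02 (adjusted p = 0.0525) did not pass. CCDC40 and CCDC65 had −0.31 and −0.47, also not past the adjusted p.

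SPAG16 and SPEF2 of the central pair group fell in the GS group. SPAG16 was at 9.71, 12.1, 11.4, 20.4 and 13.1 CPM at 0h and 5.69, 7.06, 6.72, 9.70 and 6.41 CPM at 12h, with no overlap and a log2 fold change of −0.92 (adjusted p = 0.00285). SPEF2 went from 13.1 to 18.3 CPM to 6.85 to 10.8 CPM, also without overlap, with a log2 fold change of −0.77 (adjusted p = 0.0187). CFAP70 (ENSSSCG00000010298, chr14:76075269-76198778, minus strand), also placed with the central pair, was at 21.6, 20.2, 18.7, 21.6 and 24.8 CPM at 0h and 19.2, 21.3, 16.8, 15.1 and 16.7 CPM at 12h, overlapping, with −0.31 (SE 0.20, adjusted p = 0.221). SPAG6 had a log2 fold change of −0.56 (adjusted p = 0.108).

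TEKT1 (ENSSSCG00000017884, chr12:50526190-50580553, minus strand), a tektin that forms filaments within the doublet, was at 4.68, 7.65, 6.86, 6.28 and 6.80 CPM at 0h, 3.46, 7.31, 2.39, 4.56 and 3.49 CPM at 6h and 3.61, 4.58, 3.01, 3.33 and 1.88 CPM at 12h in the GS group. Each 12h value lay below each 0h value. Its log2 fold change at 12h was −1.06 (SE 0.24, adjusted p = 0.00466), and −0.85 without pig 77. It was not called with DESeq2's size factors (−0.997) or the 2 times alone (−0.99), both just short of 2-fold, nor with all 27 libraries in one fit, where the adjusted p in edgeR was 0.0815. In the PD group it was at 12.5, 15.2, 15.9 and 17.7 CPM at 0h, 6.32, 7.03, 5.25 and 20.6 CPM at 6h and 37.3, 6.22, 5.03 and 14.3 CPM at 12h, with pigs 3, 4 and 5 lower than at 0h, pig 2 higher than at 0h and a log2 fold change of −0.35 (SE 0.60, adjusted p = 0.767). CFAP52, another protein inside the doublet, fell by 0.74 on the log2 scale in GS (adjusted p = 0.0190), and TEKT2 had −0.25 (adjusted p = 0.313).

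CFAP43 (ENSSSCG00000010609, chr14:115073529-115174043, minus strand), which with CFAP44 tethers an inner arm dynein, was at 16.1, 15.7, 11.5, 11.6 and 13.8 CPM at 0h and 9.30, 10.2, 8.40, 6.70 and 8.20 CPM at 12h in the GS group. The times did not overlap and the log2 fold change was −0.71 (SE 0.24, adjusted p = 0.0312), against −0.23 (adjusted p = 0.4998) for CFAP44. TPPP3 (ENSSSCG00000035983, chr6:28045437-28071537, minus strand) was at 119.7, 85.4, 134, 114 and 155 CPM at 0h and 66.7, 69.2, 157, 129 and 78.2 CPM at 12h, lower in 3 of 5 pigs, with a log2 fold change of −0.38 (SE 0.17, adjusted p = 0.0881). In PD it was at 248, 261, 156 and 262 CPM at 0h and 475, 59.9, 102 and 105 CPM at 12h. Here pigs 3, 4 and 5 were below every 0h value and pig 2 was above all of them, and the log2 fold change of −0.69 (SE 0.48, adjusted p = 0.417) did not pass.

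**Figure D4:**
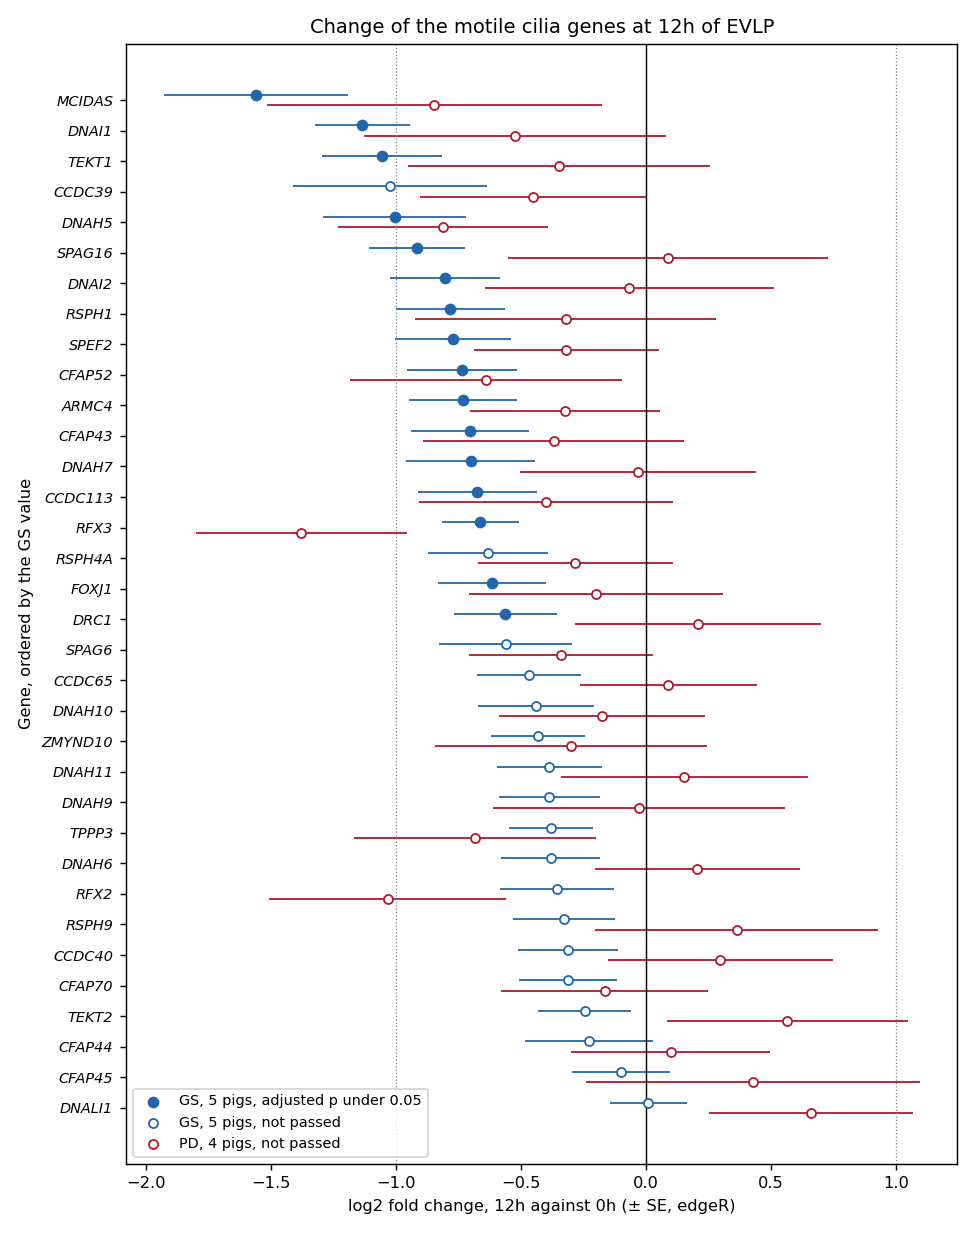
Log2 fold change of each motile cilia gene at 12h against 0h in the GS group (blue, 5 pigs) and the PD group (red, 4 pigs). Bars are ± SE from edgeR and filled points passed the adjusted p, 16 in GS and 0 in PD; dotted lines mark a 2-fold change.

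Whether the 2 groups changed differently was asked with the interaction of group and time in 1 fit of all 27 libraries. For the change to 12h the estimate of PD minus GS was above 0 for 31 of 34 members with a median of 0.43, where 50.6% of all genes were below 0. It was 0.26 with 9 estimates below 0 without the libraries of pig 4 at 0h and pig 2 at 12h, 0.26 with 12 below 0 without PD pig 2, and 0.24 with 11 below 0 without PD pig 5. None was called by edgeR, where 0 of all 17884 genes (0%) were, and 0 members had an unadjusted p under 0.05. For the change to 6h the median was 0.11, 0 members were called (0% of all genes) and 1 had an unadjusted p under 0.05. Without PD pig 5 this median was −0.28, with 24 of 34 estimates below 0, and without GS pig 44 it was −0.04, so its sign rests on single pigs. It was 0.21 without the 2 PD libraries named above. The gene with the unadjusted p under 0.05 was SPAG16 at 1.53 (SE 0.63, adjusted p = 0.783 in edgeR). Its PD values were 10.2, 14.7, 1.43 and 4.73 CPM at 0h and 15.6, 9.89, 13.7 and 23.6 CPM at 6h, with pig 4 at 0h the lowest of all 27 libraries. DESeq2 called 0 members at either time. The SE of the difference at 12h ran from 0.37 (CCDC65) to 0.72 (MCIDAS) on the log2 scale.

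The levels of the groups were compared at each time. These comparisons carry the gap in depth described above. At 0h, before any perfusion, 2 members were called higher in PD and 1 lower, 3 of 34 where 29.1% of all genes were called (15.2% higher and 13.9% lower). TEKT1 was at 12.5, 15.2, 15.9 and 17.7 CPM in PD against 4.68, 7.65, 6.86, 6.28 and 6.80 CPM in GS, with no overlap and a log2 difference of 1.29 (SE 0.22, adjusted p = 0.000746). RSPH9 was at 3.39, 6.64, 7.23 and 5.21 CPM in PD against 2.31, 2.60, 3.51, 3.28 and 2.24 CPM in GS, where pig 2 fell within the GS range, with a log2 difference of 1.05 (SE 0.31, adjusted p = 0.0158). RSPH1 was lower, at 8.19, 9.75, 17.04 and 7.81 CPM against 23.3, 13.1, 29.4, 32.6 and 31.5 CPM, overlapping through PD pig 4 and GS pig 17, with a log2 difference of −1.23 (SE 0.32, adjusted p = 0.00955).

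With the adjusted p alone 6 members were higher and 3 lower in PD at 0h (40.6% of all genes in either direction, 21.3% higher and 19.3% lower). Besides those named, TPPP3 (0.97), SPAG6 (0.96), RSPH4A (0.83) and CCDC39 (0.73) were higher and CCDC40 (−0.96) and DNAH9 (−0.67) lower on the log2 scale. TPPP3 lay above and CCDC40 and DNAH9 below the other group without overlap, as did 16.1% and 18.1% of all genes. Within the spoke head RSPH1 was lower while RSPH4A and RSPH9 were higher, and within the ruler CCDC39 was higher and CCDC40 lower. Scaled to total counts alone, which shifts the median of all genes to −0.40, the calls were 0 higher and 5 lower (RSPH1, DNALI1, DNAH11, CCDC40 and DNAH9), and the RSPH9 difference was 0.64. The RSPH9 call at 0h was lost on leaving out GS pig 9, GS pig 77, PD pig 3 or PD pig 4 and without the low count filter. Without PD pig 4 the calls at 0h were 3 higher and 2 lower (TEKT1, TPPP3, CFAP43, RSPH1 and CCDC40).

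At 6h 1 member was higher and 1 lower in PD, where 21.1% of all genes were called (11.1% higher and 10% lower). CFAP43 was at 44.8, 27.6, 23.7 and 40.0 CPM in PD and 20.8, 21.7, 5.18, 11.5 and 9.71 CPM in GS, with no overlap, as for 11.7% of all genes, and a log2 difference of 1.29 (SE 0.40, adjusted p = 0.0339). This call was lost on leaving out GS pig 44, 55 or 77 or PD pig 2 or 5. RSPH1 was at 6.01, 8.33, 9.13 and 13.9 CPM in PD and 27.8, 18.5, 15.5, 29.2 and 22.8 CPM in GS, again with no overlap (9.52% of all genes) and a log2 difference of −1.29 (SE 0.32, adjusted p = 0.0135). Total count scaling left RSPH1 alone, 0 higher and 1 lower.

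At 12h 3 members were called higher in PD and 0 lower, where 19.3% of all genes were called (10.2% higher). RSPH4A was at 25.8, 27.8, 31.6 and 35.6 CPM in PD and 21.1, 12.1, 14.7, 12.9 and 11.9 CPM in GS, with no overlap and a log2 difference of 1.06 (SE 0.30, adjusted p = 0.0297). RSPH9 was at 14.4, 3.57, 4.62 and 7.71 CPM against 1.42, 2.21, 3.37, 2.61 and 1.91 CPM, with a log2 difference of 1.74 (SE 0.47, adjusted p = 0.0236). TEKT1 was at 37.3, 6.22, 5.03 and 14.3 CPM against 3.61, 4.58, 3.01, 3.33 and 1.88 CPM, with a log2 difference of 2.29 (SE 0.58, adjusted p = 0.0173). In RSPH9 and TEKT1 the groups did not overlap, and PD pig 2 was the highest library of either gene.

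The RSPH4A call was lost on leaving out any single pig but GS pig 9 and PD pig 2, and the RSPH9 call on leaving out GS pig 55 or 77 or PD pig 5. TEKT1 remained called without each pig, with a log2 difference of 1.38 without PD pig 2. Without PD pig 2 at 12h 7 members were called, 5 higher (RSPH4A, RSPH9, TEKT1, CFAP43 and SPAG6) and 2 lower (RSPH1 and RFX2). With total count scaling it was 1 higher (TEKT1) and 1 lower (RFX2). The 19.3% of all genes called belongs to the fit with all pigs, and no share is given for these refits. In all, 6 members lay above GS without overlap at 12h (10.3% of all genes) and 0 below (11.2%): DNAH6, RSPH4A, RSPH9, CCDC65, TEKT1 and TEKT2. By the adjusted p alone 4 were higher (10.6% of all genes), the fourth being CCDC65 at 0.98 (adjusted p = 0.0313).

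Other genes of the cilium were read from lists chosen for their function. Of 16 further genes of the multiciliated program 14 were tested, and in the GS group at 12h 3 were called lower and 0 higher, beside the 8.66% of all genes called lower. GMNC, which acts upstream of MCIDAS, had a log2 fold change of −2.65 (adjusted p = 0.00276), CCDC78, a protein of the deuterosome that multiplies centrioles, −1.76 (adjusted p = 4.52e-05) and CCNO, a cyclin of the same step, −1.24 (adjusted p = 0.0397). GMNC was a low gene, at 0.127 to 4.10 CPM over the 27 libraries (median 0.850), so the limit of low counts given for MCIDAS holds for it too. With the adjusted p alone 6 were lower (20.8% of all genes) and 2 higher. In the PD group 0 of the 14 were called by edgeR at 12h, where 5.98% of all genes were, with 2 lower and 1 higher at an unadjusted p under 0.05.

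Of 128 other motile cilium names 89 were tested in GS. At 12h 12 were called lower and 1 higher, where 8.66% of all genes were lower, and the adjusted p alone gave 49 lower (20.8% of all genes) and 3 higher with a median log2 fold change of −0.65. STK36, a kinase needed for the central pair (−1.09, adjusted p = 0.000141), VWA3B (−1.76, adjusted p = 0.000127) and CFAP73 (−1.36, adjusted p = 0.000633) were among the lower ones. DNAH17, a heavy chain known best from sperm, was the higher one at 1.84 (adjusted p = 0.00112). In PD at 12h, where 5.98% of all genes were called in either direction, 2 of 88 were called lower, DZIP3 (−2.57, adjusted p = 0.0235) and VWA3B (−1.71, adjusted p = 0.0488), with a median of −0.23. In PD against GS 21 of 89 were higher and 7 lower at 0h, and 17 of 88 were higher and 4 lower at 12h. The shares of all genes called in either direction were 29.1% and 19.3%.

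Genes of intraflagellar transport and the primary cilium are used by most cell types and not by multiciliated cells alone. Of 54 names 44 were tested. In GS at 12h 2 were called lower, among them RPGRIP1L (−1.10, adjusted p = 0.00485), and the adjusted p alone gave 32 lower and 0 higher with a median of −0.60, where 8.66% of all genes were called lower and 20.8% were lower by the adjusted p alone. In PD at 12h 5 were called lower, among them INVS, BBS2, TCTN2 and TTC8, and 0 higher, where 5.98% of all genes were called in either direction, with a median of −0.63. The average of this list in PD at 12h was 3.73 to 3.93 log2 CPM, below all PD libraries at 0h (4.33 to 4.76), while the motile cilia genes overlapped between these times.

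**Figure D5:**
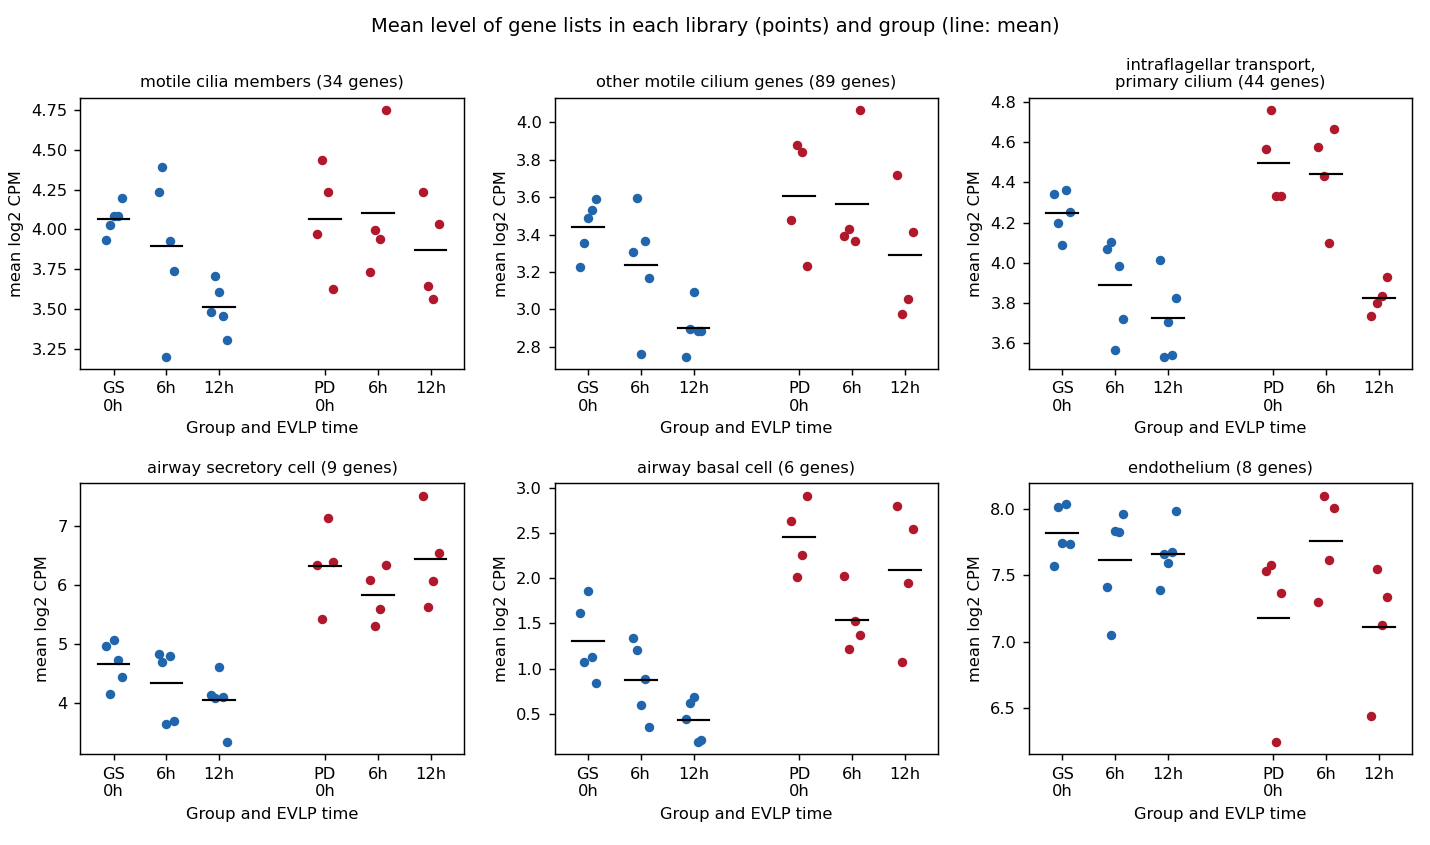
Average level of 6 gene lists in each library. Vertical axes give the mean log2 CPM over the genes named in each panel title, points are libraries (GS blue, PD red) and black lines group means; the motile cilia genes overlap between groups at every time, and the secretory list is higher in every PD library than in every GS library.

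Markers of the other airway epithelial cells were read beside these results. Of 12 secretory cell markers 9 were found and all 9 had counts in all 27 libraries. Their summed level ran from 389 to 1366 CPM at 0h, 296 to 823 at 6h and 363 to 1121 at 12h in GS, and from 1393 to 5106, 963 to 2123 and 1171 to 7849 in PD. In GS at 12h 2 of 9 were called lower (8.66% of all genes), the club cell secretoglobin SCGB1A1 (−1.61, adjusted p = 0.00106) and BPIFA1 (−3.05, adjusted p = 0.00434). In PD against GS 4, 5 and 6 of the 9 were called higher at 0h, 6h and 12h, and 1 lower at 6h, where 15.2%, 11.1% and 10.2% of all genes were higher and 10% lower at 6h.

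Of 8 basal cell markers 6 were found, none at 0 in any library. Their summed level was 16.5 to 31.7 CPM at 0h, 16.1 to 34.3 at 6h and 13.4 to 28.7 at 12h in GS. In PD it was 63.0 to 112, 28.6 to 144 and 58.3 to 302, so the groups overlapped at 6h. In GS at 12h 4 of the 6 were called lower (8.66% of all genes), among them TP63 (−1.59, adjusted p = 0.000943) and NGFR (−1.62, adjusted p = 0.00153). Against GS, 2, 2 and 3 basal markers were called higher in PD at 0h, 6h and 12h, of 6, 6 and 4 that passed the filter, beside the same 15.2%, 11.1% and 10.2% of all genes. The highest secretory and basal sums, 7849 and 302 CPM, belonged to the PD library of pig 2 at 12h. Its sums of submucosal gland (884 CPM), alveolar type 2 (90722 CPM) and smooth muscle markers (3464 CPM) were the highest as well. The gland sum rests on 2 of 6 listed genes, LTF and FOLR1. FOLR1 alone gave 882 CPM of it, so this sum is not read as gland content. SFTPC alone gave 85010 CPM of the alveolar type 2 sum. Averaged as log2 CPM, its smooth muscle markers were at 7.54, below the 8.04 of PD pig 3 at 6h. Its alveolar type 1 (6.83) and endothelial (6.43) averages were the lowest of the PD libraries at 12h. The same library held the highest values of DNAI2, RSPH9, DRC1, TEKT1, TEKT2, CFAP45, CFAP52 and TPPP3, and the lowest value of RFX3 (9.71 CPM). Against the 0h biopsy of pig 2, 15 of the 34 members were lower in it. Their changes in log2 CPM ran from −1.72 (RFX3) to 2.49 (CFAP45). The part of airway content of the biopsies in the changes of the motile cilia genes was not tested.

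Among the markers of the rest of the lung, 0 of 9 alveolar type 2, 0 of 6 alveolar type 1, 0 of 8 endothelial and 0 of 7 smooth muscle genes were called by edgeR in GS at 12h, where 15.7% of all genes were. At an unadjusted p under 0.05 these lists held 2, 2, 3 and 2 lower and 3, 1, 1 and 0 higher genes, and at the adjusted p alone 2, 0, 3 and 2 lower (20.8% of all genes) and 1, 0, 1 and 0 higher.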

How the data were processed

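Lung biopsies of 9 pigs at 0h, 6h and 12h of EVLP gave 27 libraries made with a stranded mRNA kit. The authors deposited 1 table of raw read counts per gene. According to the submitters' processing notes and the methods of the study, bcl2fastq 2.2.18.12, cutadapt 1.15, TopHat2 2.0.14 (Sscrofa11.1, Ensembl release 101) and featureCounts of Subread 1.6.0 made the counts, and DESeq2 1.18.1 followed. The strand setting of the counting is not given in the sources used here, so reads of overlapping antisense genes could be included. Reads shared by near-identical gene copies could be lost or split. Columns were matched to samples by their names, and 0 columns of other samples were left unused.

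Counts were tested with edgeR 4.0.16 in R 4.3.3: filterByExpr, TMM scaling, robust quasi-likelihood fits and Benjamini-Hochberg adjustment over all genes tested, 15545 to 18594 in each comparison. Calls needed a change of 2-fold or more and an adjusted p below 0.05. Times within a group were compared with the pig as a block, since the 3 biopsies of a number come from the same lungs. Over all genes past the filter, deviations of libraries of the same pig from the time means correlated on average at 0.526 in GS (0.342 to 0.740 over 15 pairs of libraries) and 0.109 in PD (−0.283 to 0.488 over 12 pairs). PD was compared with GS at each time without a block, and the changes were compared through an interaction. CPM uses TMM library sizes of all 27 libraries, and log2 CPM a prior count of 2. SE is the log2 fold change divided by the square root of F. The pipeline was tested on simulated data.

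The members and gene lists were chosen with earlier results of these data known. Values are given for the 4 regulators, every called member, the member with the highest mean log2 CPM in each role and the highest and lowest fold change at 12h in each group. Other members with values were chosen after their values were seen. Alternatives were DESeq2 1.42.0, its size factors, total count scaling, no low count filter, no fold threshold, no block, other sets of libraries, and each pig left out. The shares of all genes called are those of the main fits. 1 gene of the primary cilium list and 1 start region are not reported here.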

Additional observations from a re-analysis of the deposited data

Results flagged for a closer look

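Values of single libraries far from the others of their group and time were looked for in 114 groups of 4 or 5 libraries over 19 quantities, and 8 stood apart by Dixon's criterion. Chance gives about 1 in 20 groups. Values here are log2 CPM. In the GS group all 5 such values belong to pig 17, 3 of them to its library at 0h. FOXJ1 was at 5.41 in pig 17 at 12h, with the other pigs at 3.8 to 4.26, and at 5.83 at 6h, with the others at 3.89 to 4.45. At 0h MCIDAS was at 1.06 (others 0.365 to 0.561), DNAH5 at 4.49 (others 4.08 to 4.19) and DNALI1 at 2.34 (others 3.2 to 3.35), so pig 17 was high for MCIDAS and DNAH5 and low for DNALI1. In the PD group pig 2 at 12h was high for RSPH1 at 4.57 (others 2.28 to 2.6) and for DRC1 at 5.55 (others 4.26 to 4.31). Pig 4 at 0h was low for TPPP3 at 7.28 (others 7.95 to 8.03).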

How the results depend on the processing

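No called gene changed direction, and the tests of the difference between the changes of the groups called 0 members under each edgeR and DESeq2 alternative. An exact Wilcoxon test on the changes of 5 against 4 pigs also called 0, but its smallest p is too large to pass the adjustment unless a large share of all genes reach it, so this 0 says nothing about stability. For GS at 12h (4 members called), 16 were called with no fold threshold, 8 with total count scaling, and 2 with DESeq2's size factors, with no replicate block (DNAI1 and TEKT1), with the 2 times alone or with all 27 libraries in one fit. Leaving out a pig gave 2 to 4, with 2 without pig 77. For GS at 6h (0 called) it was 1 with no fold threshold and 1 with total count scaling. For PD at 12h (0 called) it was 1 with DESeq2's Wald test, total count scaling, no replicate block or all 27 libraries (RFX3 in each), 2 without the libraries of pig 4 at 0h and pig 2 at 12h, and 0 to 4 leaving out a pig. For PD from 6h to 12h it was 1 with all 27 libraries in one fit.

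For PD against GS at 0h (3 called) it was 9 with no fold threshold, 5 with total count scaling or without the library of pig 4, and 3 to 5 leaving out a pig, with 5 without GS pig 17, PD pig 4 or PD pig 5. At 6h (2 called) it was 1 with total count scaling and 1 to 4 leaving out a pig, with 4 without GS pig 17 and 1 without GS pig 44, 55 or 77. At 12h (3 called) it was 7 without PD pig 2, and 1 to 7 over the pigs left out, with 1 without GS pig 55, GS pig 77 or PD pig 5. Total count scaling moved the mean change of the members in GS at 12h from −0.55 to −0.81 and the median of all genes there from −0.08 to −0.30. The median of the members changed sign for GS at 6h, PD at 6h and PD at 12h without single pigs, and for PD at 6h from 0.05 to −0.01 with total count scaling. For PD against GS at 0h it went from 0.15 to −0.26 with total count scaling to −0.02 without PD pig 3, and to 0.03 without the library of PD pig 4. For the difference between the changes to 6h it went from 0.11 to −0.28 without PD pig 5, to −0.04 without GS pig 44 and to −0.00196 without GS pig 77. The causes were not tested. Leaving out the replicate block changed no other count of called members, and took the members past the adjusted p alone from 16 to 5 for GS at 12h and from 1 to 0 for GS at 6h. Among the members, low counts limit MCIDAS most.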
